A study of Homo sapiens with 8 samples.

Results

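The stretch of chromosome 8 from 10 to 30 Mb (hg19) was described across the islands of 6 ChIP-seq lists, 1 for each of 3 antibodies in each of 2 diffuse large B cell lymphoma lines. An island is a stretch of enriched reads that the authors called in 1 library. Of the 58757 islands of the 6 lists, 365 overlapped this 20 Mb segment. They were 224 H3K27me3 islands of HT and 8 of SUDHL6, 16 EZH2 islands of HT and 2 of SUDHL6, and 67 H3K4me3 islands of HT and 48 of SUDHL6. HT and SUDHL6 are established cell lines, both grown without treatment, and each combination of line and antibody had 1 library. SUDHL6 is known from other work to carry an activating mutation in EZH2, and the labels give no EZH2 genotype for either line. The segment was chosen by its H3K27me3 islands, many in HT and nearly absent in SUDHL6, so its H3K27me3 difference is given as a description. EZH2 and H3K4me3 were not used in the choice, but they come from the same pair of lines. With no replicate, no test between the lines was possible, and intervals of shares are exact (Clopper-Pearson, 95%) and cover counting error only.

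Polycomb repressive complex 2 adds methyl groups to lysine 27 of histone H3 through its enzyme EZH2. The trimethylated form, H3K27me3, marks repressed chromatin and often spreads over wide domains around developmental genes that are silent in the cell at hand. H3K4me3, trimethylated lysine 4 of the same histone, sits in narrow peaks at active or poised promoters. The segment lies on the short arm of chromosome 8. That arm carries genes for factors of other lineages, such as GATA4 of the heart and gut, and genes of the death receptors for the ligand TRAIL. Islands are given by position and were not assigned to genes, because no gene positions on hg19 were used here.

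H3K27me3 covered 708 kb of the segment in 224 HT islands and 13.05 kb in 8 SUDHL6 islands. Covered length was thus 54.3 times as long in HT, and HT held 96.6% (93.3 to 98.5%) of the islands of both lines. On chromosomes 1 to 22 HT held 56.2% of the H3K27me3 islands. The segment held 1.30% of the whole H3K27me3 length of the HT list and 0.0254% of that of the SUDHL6 list. To set bins beside the rest of the genome, log2 ratios were taken of the HT over the SUDHL6 covered length, with 3 kb added to both lines. The ratio of the summed length of chromosomes 1 to 22 was then subtracted (0.08 for H3K27me3, 0.32 for EZH2 and -0.37 for H3K4me3). This corrected ratio was 5.39 for H3K27me3 in the segment.

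HT H3K27me3 lay in a few dense blocks with bare stretches between them. By 1 Mb bin, its covered length ran from 0 to 135 kb with a median of 7.2 kb, and 5 of the 20 bins held none. The fullest bins were 11 to 12 Mb with 135 kb and 22 to 23 Mb with 131.4 kb. The fullest 5 bins, which also included 10 to 11, 21 to 22 and 27 to 28 Mb, together held 73.2% of the HT length. The longest bare stretch in HT ran from 12732751 to 17002050 and was 4.27 Mb wide. SUDHL6 H3K27me3 was at 0 in 16 of the 20 bins and reached at most 7.05 kb, between 22 and 23 Mb. The bin that was fullest in HT held 2.55 kb in SUDHL6. HT was thus the longer in all 15 bins where either line had any H3K27me3.

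Of the 20 bins, 14 had at least 3 kb of H3K27me3 in HT or SUDHL6, and in all 14 the corrected ratio was 1 or more, a 2-fold difference, in favour of HT. All 14 reached 3 kb in HT, so with so little in SUDHL6 most had to pass. Among the 1740 bins of chromosomes 1 to 22 with at least 3 kb, 47.9% passed in that direction and 17.6% in favour of SUDHL6. Ratios of the 14 bins ran from 1.18 between 26 and 27 Mb to 4.70 between 27 and 28 Mb.

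The difference in H3K27me3 began before the segment and ended after it. On chromosome 8 the bins of at least 3 kb with a corrected ratio of 1 or more formed a run from 6 to 38 Mb. No bin of at least 3 kb within it fell below that ratio. All bins from 0 to 6 Mb had under 3 kb in both lines, so 6 Mb was the earliest start the run could have. Bins under 3 kb in both lines were passed over, among them all from 13 to 17 Mb and from 31 to 37 Mb. The end at 38 Mb thus rested on the bin from 37 to 38 Mb, with 62.85 kb in HT and 16.95 kb in SUDHL6. The run counted 20 bins and held 893 kb in HT and 33.75 kb in SUDHL6. Its limits moved with the setting, to 6 to 13 Mb (7 bins) with 10 kb added and to 19 to 37.5 Mb (8.5 Mb counted) in bins of 0.5 Mb. Before the segment, from 0 to 10 Mb, HT had 52 H3K27me3 islands over 111 kb and SUDHL6 had 5 over 6.9 kb. From 30 to 40 Mb, HT had 50 islands over 129 kb and SUDHL6 had 10 over 51.15 kb, and from 40 to 50 Mb the order turned, with 118.65 kb in HT and 273 kb in SUDHL6. The bin from 38 to 39 Mb, with 53.4 kb in HT and 34.2 kb in SUDHL6, had a corrected ratio of 0.52 and was the first past the run with at least 3 kb. Beyond 30 Mb the whole rest of the chromosome carried 423 H3K27me3 islands over 1148 kb in HT and 397 over 1568 kb in SUDHL6.

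The limits at 10 and 30 Mb cut through this pattern and did not mark its edges. At the near limit the last HT H3K27me3 island outside ran from 9812251 to 9813450 and the first inside from 10377451 to 10383150. At the far limit the last inside ran from 29884801 to 29887800 and the first outside from 30239701 to 30242250. In SUDHL6 the nearest H3K27me3 islands outside lay farther away, from 7916101 to 7917900 and from 37553851 to 37555500. The 14.96 Mb from 22596601 to 37553850 held no SUDHL6 H3K27me3 island, 106 HT H3K27me3 islands over 286 kb, and 43 HT and 34 SUDHL6 H3K4me3 islands. A second stretch without SUDHL6 H3K27me3 ran from 11430751 to 21898950, over 10.5 Mb, and held 84 HT H3K27me3 islands over 279.9 kb. Neither was the longest of its kind, since they ranked 17 and 36 among the 13095 gaps between SUDHL6 H3K27me3 islands on chromosomes 1 to 22.

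The HT H3K27me3 islands of the segment were close to the rest of their list in width and score. Their median width was 2700 bp (quartiles 1762.5 to 4087.5 bp), against 2550 bp in the rest of the HT list. Islands of 10 kb or wider were 5 of 224, or 2.23% (0.729 to 5.13%), against 2.19% in the rest. The score is the authors' own value for each island, its unit is not given in the sources used here, and it is compared only within a list. The median score per kb was 19.5 in the segment and 20 in the rest, and 105 of the 224 islands lay above the median of the list. The median gap between neighbouring islands was 15.15 kb in the segment and 24.3 kb on chromosomes 1 to 22. The choice of a segment with many HT islands favours such close spacing.

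The widest HT H3K27me3 island of the segment ran from 11540101 to 11553450 (13.35 kb, score per kb 20.8), and HT EZH2 covered 41.6% of it. The next ran from 12440251 to 12451800 (11.55 kb) and from 27726901 to 27737550 (10.65 kb), with no EZH2 of either line. The fourth ran from 22405501 to 22415850 (10.35 kb) and had the highest score per kb of the 5 widest, 29.5, above that of 93.2% of the HT list. Of its length, 20.3% lay under H3K27me3 of SUDHL6 and 34.8% under EZH2 of SUDHL6, and no HT EZH2 island met it. The fifth ran from 22532251 to 22542300 (10.05 kb). None of the 5 met an H3K4me3 island of either line.

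With islands within 5 kb of each other joined, the 224 HT islands formed 159 blocks. The widest block ran from 11513701 to 11563200 over 49.5 kb. It held 8 H3K27me3 islands over 39.6 kb together with 3 HT EZH2 islands, and ranked 26 of 13110 such HT blocks on chromosomes 1 to 22. Blocks of 30.9 kb from 27726901 to 27757800 and of 25.8 kb from 12440251 to 12466050 followed, with no EZH2. None of the 3 held a SUDHL6 H3K27me3 island or an HT H3K4me3 island.

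The 8 SUDHL6 H3K27me3 islands were few, narrow and gathered in one place. Their median width was 1650 bp and none exceeded 2550 bp, against a median of 3000 bp in the rest of the SUDHL6 list. Of the 8, 6 lay between 21898951 and 22596600, and the others ran from 10924501 to 10926450 and from 11428201 to 11430750. By score per kb, 4 of the 8 lay under the 10th percentile of the SUDHL6 list, 12.9 being the lowest. The highest, 35.6, belonged to the narrowest island, 0.45 kb from 22596151 to 22596600. HT H3K27me3 overlapped 4 of the 8, and in each of these 4 pairs the HT island was at least 2-fold wider. On chromosomes 1 to 22 this held for 20.3% of 2563 pairs. The segment was chosen on this same mark, so the contrast is a description only. Seen from HT, 4 of 224 islands, or 1.79% (0.489 to 4.51%), met SUDHL6 H3K27me3, a share that the choice of a segment with so few SUDHL6 islands keeps low.

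EZH2 was also longer in HT. It covered 57.3 kb in 16 HT islands and 8.85 kb in 2 SUDHL6 islands, a corrected log2 ratio of 2.03. HT held 88.9% (65.3 to 98.6%) of the EZH2 islands of the segment, against 62.6% of those on chromosomes 1 to 22. By bin, EZH2 was longer in HT in 7 of the 20 bins, longer in SUDHL6 in 1, and at 0 in both lines in 12. Only 7 bins had at least 3 kb of EZH2 in HT or SUDHL6. Of these, 2 passed the 2-fold limit in favour of HT (11 to 12 and 28 to 29 Mb) and 1 in favour of SUDHL6 (12 to 13 Mb). That is 28.6% of the 7, against 36.7% of the 1205 such bins on chromosomes 1 to 22 in favour of HT and 21.5% in favour of SUDHL6. This count rested on the setting, with 5 bins in favour of HT when both lists had the same number or length of islands and 6 with 1 kb added or with no correction. From 12 to 28 Mb alone, EZH2 had 7 islands in HT and 2 in SUDHL6, and the corrected ratio was 0.89. The correction did not centre EZH2 at 0. The median corrected ratio was 0.85 over the 7 bins and 0.75 over the 1205 bins, and the middle 1 of 143 windows of 20 Mb (described below) had 0.82. The ratio of 0.89 was thus close to the common level on chromosomes 1 to 22.

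Of the 16 HT EZH2 islands, 6 lay between 11 and 12 Mb (25.2 kb) and 3 between 22 and 23 Mb (13.2 kb), the fullest bins of HT H3K27me3. Another 3 lay between 28 and 29 Mb (7.65 kb), where HT H3K27me3 covered 2.7 kb, and none lay between 10 and 11 Mb, where it covered 86.4 kb. Their median width was 3450 bp, against 3600 bp in the rest of the HT list, and none reached 10 kb. HT H3K27me3 met 8 of the 16, or 50% (24.7 to 75.3%), against 48.9% in the rest of the list. H3K4me3 of HT met 5 of the 16, or 31.25% (11.02 to 58.7%), against 33.8%. Neither mark of HT met 6 of the 16. The widest EZH2 islands of HT, 6.15 kb each, ran from 11720101 to 11726250, with 53.7% under HT H3K27me3, and from 22297501 to 22303650, over H3K4me3 of both lines and no H3K27me3. The highest EZH2 score per kb in HT, 27.1, was that of the island from 11203951 to 11206350, which HT H3K4me3 covered wholly and HT H3K27me3 by 62.5%.

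From the side of H3K27me3, EZH2 was met less often in the segment. HT EZH2 met 8 of the 224 HT H3K27me3 islands, or 3.57% (1.55 to 6.92%), against 7.82% of the rest of the list. The choice of a segment with many HT H3K27me3 islands favours such a low share, since HT EZH2 covered 57.3 kb there, near the median window of 58.35 kb. In SUDHL6 the 2 EZH2 islands ran from 12431851 to 12437100 (5.25 kb), with no H3K27me3 or H3K4me3 of either line, and from 22407901 to 22411500 (3.6 kb). The second lay wholly under HT H3K27me3, and SUDHL6 H3K27me3 covered 58.3% of it. None of the 16 HT EZH2 islands met a SUDHL6 EZH2 island, an interval of 0 to 20.6%, against 11.5% of the rest of the HT list. With only 2 SUDHL6 EZH2 islands in the segment, this share could hardly be high.

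**Figure D1:**
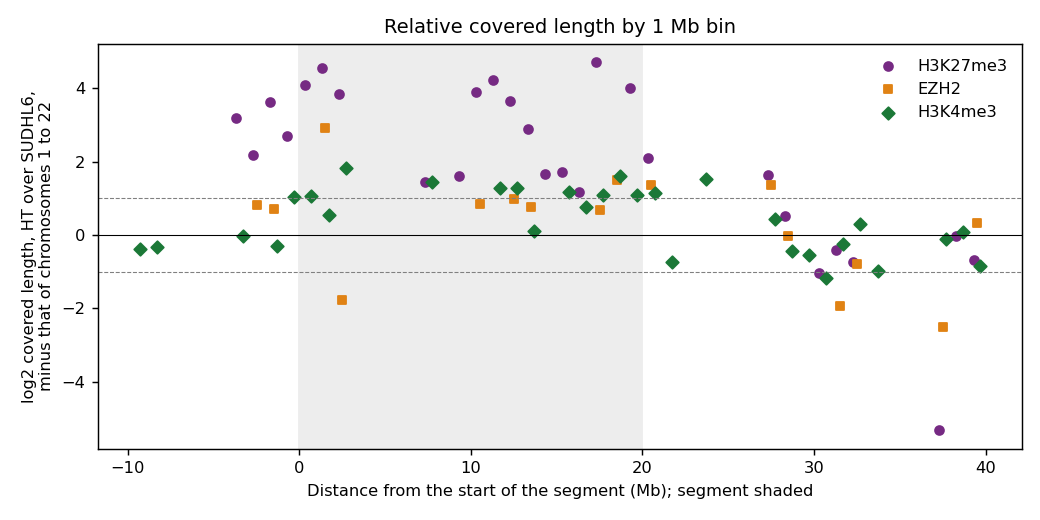
Corrected log2 ratio (HT over SUDHL6) of covered length in each 1 Mb bin with at least 3 kb in either line, against the distance from the start of the segment (Mb), with 1 symbol for each antibody, the segment shaded and dashed lines at a 2-fold difference. All 12 H3K4me3 bins of the shaded part lie above 0, between 0.11 and 1.82, and the 14 H3K27me3 bins lie between 1.18 and 4.70.

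H3K4me3 differed in the same direction as H3K27me3, by much less, and against the direction of the summed length of the rest of chromosome 8. It covered 147.9 kb of the segment in 67 HT islands and 69.45 kb in 48 SUDHL6 islands, 2.13 times as long in HT, a corrected log2 ratio of 1.43. By number the difference was smaller, with HT holding 58.3% (48.7 to 67.4%) of the islands, against 44.4% on chromosomes 1 to 22. Beyond 30 Mb of chromosome 8 H3K4me3 covered 692 kb in HT and 1328 kb in SUDHL6, a corrected ratio of -0.57. From 0 to 10 Mb it covered 32.85 kb in HT and 49.95 kb in SUDHL6, a corrected ratio of -0.19. The corrected H3K27me3 ratio of these first 10 Mb was 3.45, and their bins with at least 3 kb of H3K27me3 all lay from 6 to 10 Mb. There the corrected H3K4me3 ratio was mixed, at -0.03 from 6 to 7 Mb, -0.29 from 8 to 9 Mb and 1.04 from 9 to 10 Mb. From 7 to 8 Mb neither line had H3K4me3. From 30 to 40 Mb, with 59.85 kb of H3K4me3 in HT and 69.4 kb in SUDHL6, its corrected ratio was 0.16, and in each 10 Mb window from 40 to 130 Mb it was below 0. It was 0.36 from 130 to 140 Mb and 0.62 from 140 to 150 Mb, again in favour of HT.

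By bin, H3K4me3 was longer in HT in 17 of the 20 bins and longer in SUDHL6 in 1, from 23 to 24 Mb, where HT had 8.55 kb and SUDHL6 10.8 kb. The other 2 bins, from 14 to 16 Mb, had none. Of the 12 bins with at least 3 kb in HT or SUDHL6, 9 passed the 2-fold limit in favour of HT and 0 in favour of SUDHL6. On chromosomes 1 to 22, 7.45% of 2095 bins passed in favour of HT and 8.78% in favour of SUDHL6. With no correction for the total length 3 of the 12 passed in favour of HT, and with 10 kb added 4. Of the 12 bins, 4 reached 3 kb in HT alone and 0 in SUDHL6 alone. The fullest H3K4me3 bin of HT was 22 to 23 Mb, with 22.85 kb in HT and 10.65 kb in SUDHL6. The fullest of SUDHL6 was 11 to 12 Mb, with 14.4 kb in HT and 12.3 kb in SUDHL6. In spite of the difference in length, the bins kept nearly the same order in both lines (Spearman's rho 0.88 over 20 bins, which share libraries and promoter density).

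In 14 of the 20 bins both H3K27me3 and H3K4me3 were longer in HT, and in 6 all 3 antibodies were. HT was longer in 15 bins for H3K27me3, on which the segment was chosen, and in 17 for H3K4me3. Most bins thus had to be in the first count, and it does not show that the marks went together. EZH2 was longer in HT in 7 bins, which limits the second count. Neither joint count is given for bins outside the segment. In the 5 bins with no H3K27me3 of either line, H3K4me3 was still longer in HT in 3, by little, as from 18 to 19 Mb with 2.1 kb in HT and 0.45 kb in SUDHL6. Across the 20 bins, the covered length of HT H3K27me3 went with that of HT H3K4me3 (rho 0.62), of SUDHL6 H3K4me3 (0.65) and of HT EZH2 (0.56), as descriptions over bins that share their libraries. HT EZH2 went with SUDHL6 H3K4me3 (0.69) too. HT EZH2 was at 0 in 13 of the 20 bins and HT H3K27me3 in 5, so these values rest in part on shared empty bins. Few islands of the marks overlapped. Of the 224 HT H3K27me3 islands, 5 met HT H3K4me3, or 2.23% (0.729 to 5.13%), and 2 met SUDHL6 H3K4me3, or 0.893% (0.108 to 3.19%). In the rest of the HT list these shares were 2.04% and 3.79%. The first was thus close to that of the rest. SUDHL6 H3K4me3 covered 69.45 kb of the segment, against a median window of 177 kb, and the segment was chosen for many HT H3K27me3 islands. Both favour a low second share.

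Most SUDHL6 H3K4me3 islands lay at sites shared with HT, and the shared islands were mostly narrower in SUDHL6. HT H3K4me3 met 42 of the 48 SUDHL6 islands, or 87.5% (74.8 to 95.3%), against 58.9% of the rest of the SUDHL6 list. SUDHL6 H3K4me3 met 42 of the 67 HT islands, or 62.7% (50.01 to 74.2%), against 74.5% of the rest of the HT list. The 42 pairs were 1 to 1. Their median width was 2.4 kb in HT (quartiles 1.8 to 3.3 kb) and 1.2 kb in SUDHL6 (quartiles 0.9 to 1.8 kb). The HT island was the wider in 36 of the 42 pairs, or 85.7% (71.5 to 94.6%), the SUDHL6 island in 5, and 1 pair was equal. On chromosomes 1 to 22 outside the segment, the HT island was the wider in 47.3% of 7578 pairs.

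The median log2 width ratio of the 42 pairs, HT over SUDHL6, was 1.00, a 2-fold difference, and that of all pairs on chromosomes 1 to 22 was 0. A difference of 2-fold or more in favour of HT was met in 25 of the 42 pairs, or 59.5% (43.3 to 74.4%), against 9.95% of the 7620 pairs on chromosomes 1 to 22. Among the 126 windows of 20 Mb with at least 20 H3K4me3 pairs, the segment had the highest median ratio, followed by 70 to 90 Mb of chromosome 10 (0.81) and 110 to 130 Mb of chromosome 11 (0.81). Along chromosome 8 the median was 0.42 in the 11 pairs from 0 to 10 Mb, 0.90 in 12 pairs from 10 to 20 Mb and 1.12 in 30 pairs from 20 to 30 Mb. It was 0.25 in 20 pairs from 30 to 40 Mb and -0.31 in 17 pairs from 40 to 50 Mb, and it stayed below 0 in each window up to 130 Mb. From 130 to 140 Mb it was 0.79 in 8 pairs, and from 140 to 150 Mb 0.29 in 45 pairs.

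**Figure D2:**
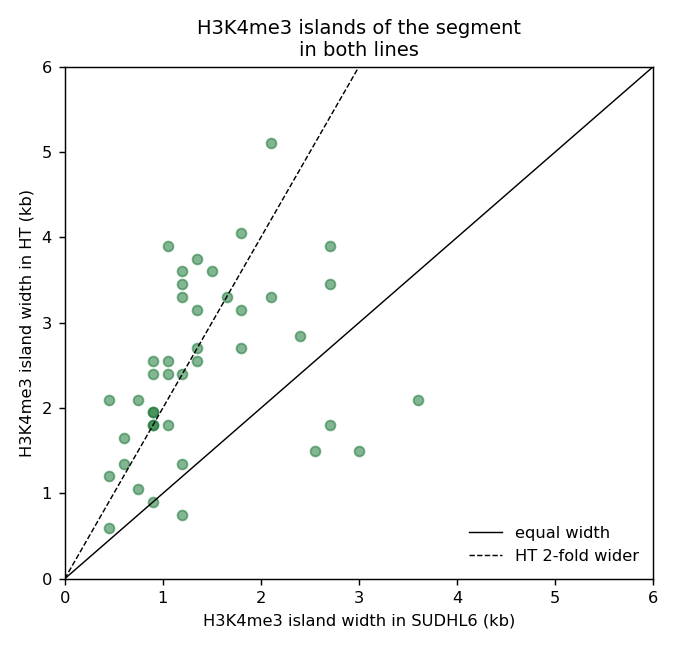
Width in HT (vertical axis, kb) against width in SUDHL6 (horizontal axis, kb) of the 42 overlapping pairs of H3K4me3 islands in the segment, with a solid line at equal width and a dashed line where the HT island is 2-fold wider. Each point is 1 pair and darker points are several pairs of the same widths. Of the 42 pairs, 36 lie above the solid line and 25 on or above the dashed one.

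The pair with the largest width ratio was an HT island of 2.1 kb, from 22524901 to 22527000, and a SUDHL6 island of 0.45 kb, from 22526101 to 22526550. In the next pair the HT island was 3.9 kb wide, from 28351201 to 28355100, and the SUDHL6 island 1.05 kb, from 28351801 to 28352850. The widest HT island with a SUDHL6 partner ran from 28744951 to 28750050 (5.1 kb), and the SUDHL6 island from 28746901 to 28749000 (2.1 kb). The 5 pairs that were wider in SUDHL6 lay between 22297951 and 27633300, among the pairs of the opposite kind. In the widest of them the HT island was 2.1 kb wide, from 23080801 to 23082900, and the SUDHL6 island 3.6 kb, from 23081251 to 23084850.

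Median H3K4me3 width in the segment was 2100 bp in HT, as in the rest of the HT list, and 1200 bp in SUDHL6, against 2025 bp in the rest of the SUDHL6 list. The median score per kb of all H3K4me3 islands of the segment was 34.0 in HT, as in the rest of the HT list, and 31.6 in SUDHL6, against 31.7 in the rest of the SUDHL6 list. Among islands that met one of the other line, the medians were 36.9 in HT, against 37.6 outside the segment, and 32.3 in SUDHL6, against 41.0 outside it. The SUDHL6 islands with a partner were thus below those elsewhere in the same list in both width (1200 bp against 2250 bp) and score per kb, while those of HT were close to theirs in both (2400 bp against 2250 bp). Of the 48 SUDHL6 islands, 38 were under the median width of their list, and of the 67 HT islands 32 were under that of theirs.

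H3K4me3 islands without a partner were 25 in HT and 6 in SUDHL6. The 25 of HT had a median width of 1650 bp and a median score per kb of 24.8. The widest ran from 12291901 to 12297450 (5.55 kb), which was the widest H3K4me3 island of the segment. The 6 of SUDHL6 were between 1200 and 2550 bp wide. In SUDHL6 none of the 48 H3K4me3 islands met SUDHL6 H3K27me3 or EZH2 (0 to 7.40%). In HT, 4 of the 67 met HT H3K27me3, or 5.97% (1.65 to 14.6%), and 5 met HT EZH2, or 7.46% (2.47 to 16.6%).

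Chromosomes 1 to 22 were cut into windows of 20 Mb in steps that made the segment 1 of them. The windows began at 10 Mb of each chromosome, so what lies before was in none. The last window of a chromosome could be shorter than 20 Mb and was kept in the ranks and medians. The windows of H3K4me3 pairs above were cut in the same way. The segment then ranked 1 of 144 by the corrected H3K27me3 ratio, on which it was chosen, 3 of 145 by that of H3K4me3 and 34 of 143 by that of EZH2. The windows above it for H3K4me3 were 50 to 70 Mb of chromosome 10 (1.52) and 90 to 110 Mb of chromosome 11 (1.49). By length alone, the 708 kb of H3K27me3 in HT ranked 15 from the highest, against a median window of 247 kb. The 13.05 kb of SUDHL6 ranked 27 from the lowest, against a median of 137 kb. For H3K4me3 the 147.9 kb of HT was close to its median window of 132 kb, and the 69.45 kb of SUDHL6 ranked 13 from the lowest, against a median of 177 kb. Most windows with less SUDHL6 H3K4me3 than that were the last of their chromosome, so this rank overstates how low the segment was among full windows. For EZH2 the 57.3 kb of HT was close to its median of 58.35 kb, and the 8.85 kb of SUDHL6 was below its median of 18.6 kb.

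**Figure D3:**
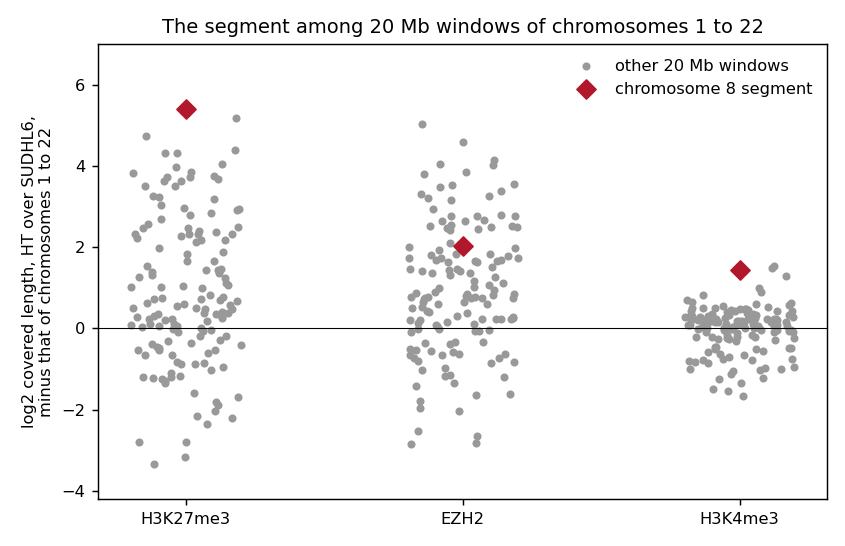
Corrected log2 ratio (HT over SUDHL6) of covered length in each 20 Mb window of chromosomes 1 to 22 with at least 3 kb in either line, by antibody, with the segment as a red diamond. Windows began at 10 Mb of each chromosome, and the last of a chromosome could be shorter than 20 Mb. The other windows are spread sideways at random for legibility. The segment is the highest of 144 windows for H3K27me3, rank 3 of 145 for H3K4me3 and within the spread of the windows for EZH2.

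Where no island was called the mark may still be present, since the sources used here did not give the read depth. H3K4me3 islands of the segment also covered less length in SUDHL6 (69.45 kb) than in HT (147.9 kb), and the cause was not tested. No input library was analysed here and copy number was not measured, so the number of DNA copies and the amount of each mark cannot be told apart.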

How the data were processed

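The data are ChIP-seq libraries of the lines HT and SUDHL6, 1 per line for each of the antibodies to H3K27me3, EZH2 and H3K4me3. The 2 input samples were not used here. The submitters' processing notes name SICER and the build hg19. Per the file names, calling used 150 bp windows, gaps of 450 bp and the FDR 1E-7, with 1 list per library. The deposited score of each island is the authors' own value. What it counts, the aligner, the control, the depth and the meaning of the differing normalization tags of the lists are not given in the sources used here, and no level was compared between antibodies. Positions count from 1.

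Islands overlapping the segment by at least 1 bp were taken, and length outside it was not counted. Bins of 1 Mb start at the chromosome start, and those with under 3 kb in both lines were left out of counts of bins. The same minimum overlap held between lists, and pairs are islands that met exactly 1 island of the other line. The length, overlap and pairing steps were right in 100% of 80 checks on simulated islands. Named regions are the leading ones among the 5 widest and the 3 of highest score per kb of each list, islands of lists with 10 or fewer, those next to the segment and the edges of bare stretches. Pairs were named after their values were seen. The segment, the measures and the lists were chosen with earlier results of these data known. Alternatives changed the islands used, the length added, the scaling, the bins and the limits, and those for pairs were added after the data were seen. The work used Python 3.11.15 with numpy 2.4.6 and scipy 1.17.1, and matplotlib 3.10.9 for figures.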

Additional observations from a re-analysis of the deposited data

How the results depend on the processing

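Of 101 alternative values, 79 counted as unchanged. For shares this meant within the counting interval of the main value, and for counts of bins within 1.5 times. For log2 ratios it meant within a margin taken from the interval of the HT share of islands. For EZH2 that margin was larger than the ratio of 2.03 itself, so its ratios could hardly count as moved. No log2 ratio changed sign, and no HT share in these alternatives fell below 57.3%. From 12 to 28 Mb alone the EZH2 ratio was 0.89 instead of 2.03 and the HT share 77.8% instead of 88.9%. With the 50% of each list of highest scores, the HT share of islands was 100% for H3K27me3 (110 in HT and 0 in SUDHL6) and 81.4% for H3K4me3, the log2 ratios were 7.35 and 2.46, 9 H3K27me3 bins passed the 2-fold limit instead of 14, and HT was wider in 60% of H3K4me3 pairs, with 5 pairs left. The HT share of H3K4me3 islands was 67.7% with the same number of islands in both lines and 77.0% with the same covered length. With 10 kb added, bins past the limit were 9 for H3K27me3, 1 for EZH2 and 4 for H3K4me3, and the H3K27me3 run counted 7 bins, from 6 to 13 Mb. In bins of 0.5 Mb the run counted 8.5 Mb, from 19 to 37.5 Mb. The 2 EZH2 bins became 5 with lists of the same number or of the same length, 6 with 1 kb added, with no correction or with correction by the rest of chromosome 8, and 8 Mb in bins of 2 Mb. The 9 H3K4me3 bins became 3 with no correction, 5 Mb in bins of 0.5 Mb and 14 Mb in bins of 2 Mb. The cause was not tested. No paired analysis was possible because each line and antibody had 1 library. The planned gene list was not run, for want of hg19 gene positions.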
